A study of Mus musculus with 36 samples.

Results

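Mouse embryonic fibroblasts with an intact Perk gene (PERK WT in the labels) were treated with halofuginone or with BtdCPU, compounds that start the same stress response through different kinases. The members are the 3 libraries labelled PERK WT Halofuginone and the 3 labelled PERK WT BtdCPU, 6 of the 36 libraries of the series, chosen by genotype, treatment and replicate number. The full series crosses 2 genotypes with 6 treatments, 3 replicates each. From it, 4 further groups of 3 libraries serve here as references: PERK WT with the vehicle DMSO, and the PERK -/- fibroblasts (called Perk-null here) with DMSO, halofuginone or BtdCPU. None of these groups received thapsigargin, the third agent of the series. The labels give neither dose nor treatment time for any agent, so a difference between the compounds cannot be told apart from a difference in how strongly each was dosed. No source says whether the replicates were separate cultures. The p-values rest on a spread between replicates that was estimated over all 36 libraries, groups not compared here included. That spread may be technical. The labels describe each genotype only as a fibroblast line, with no second line for either.

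The integrated stress response (ISR) begins when one of several kinases phosphorylates the translation factor eIF2 alpha. General protein synthesis then falls while a few mRNAs, that of the transcription factor ATF4 among them, are translated more, and ATF4 raises genes of amino acid supply, tRNA charging and stress adaptation. Halofuginone occupies the prolyl-tRNA synthetase of EPRS, so that uncharged proline tRNA builds up and the kinase GCN2 is activated. BtdCPU is a diaryl urea used to activate HRI, the kinase that relays heme shortage and mitochondrial stress, and it has been described as a mitochondrial uncoupler. The comparison asks how far cells reach the same state when the ISR is entered through GCN2 or through HRI.

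ATF4 works at composite sites that join part of a C/EBP site to part of an ATF site. Among them, 3 ISR genes of different behaviour in these data are shown with the 250 bases before their start site, in lower case with a match to the 8-base forms TTGCATCA or TGATGAAA in capitals. They are taken from RefSeq promoter windows of GRCm38.p6, an older build than the one named in the submitters' processing notes. Atf3, on the minus strand of chr1:191183334-191183583, carries the match from base -110 to -103. Chac1, on the plus strand of chr2:119350992-119351241, carries it from -193 to -186. Asns, on the minus strand of chr6:7693210-7693459, carries it from -23 to -16.
Atf3: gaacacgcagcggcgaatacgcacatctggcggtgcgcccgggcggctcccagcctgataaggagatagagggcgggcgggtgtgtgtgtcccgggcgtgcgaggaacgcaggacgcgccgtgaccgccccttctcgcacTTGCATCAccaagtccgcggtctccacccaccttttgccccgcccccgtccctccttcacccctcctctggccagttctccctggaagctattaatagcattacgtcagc
Chac1: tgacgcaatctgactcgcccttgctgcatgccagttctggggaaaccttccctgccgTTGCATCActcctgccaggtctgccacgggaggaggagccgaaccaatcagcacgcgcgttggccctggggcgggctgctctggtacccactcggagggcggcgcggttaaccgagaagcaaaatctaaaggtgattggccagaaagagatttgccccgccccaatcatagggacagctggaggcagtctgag
Asns: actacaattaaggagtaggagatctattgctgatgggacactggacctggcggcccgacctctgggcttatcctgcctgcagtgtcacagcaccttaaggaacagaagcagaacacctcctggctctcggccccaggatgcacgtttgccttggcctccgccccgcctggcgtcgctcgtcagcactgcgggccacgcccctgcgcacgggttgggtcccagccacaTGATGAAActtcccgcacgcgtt
Either form on either strand (TTGCATCA, TGATGCAA, TGATGAAA or TTTCATCA) was found in 5 of the 23 ISR score genes that had a window, namely Atf3, Nupr1, Jdp2, Asns and Got1, which is 21.7%. The same letters occurred in 154 of 11158 tested genes with a window, 1.38%, and in 547 of all 32851 windows, 1.67%. Chac1 is not an ISR score gene and comes from the glutathione list. A match describes letters in the window and is not a measured binding site.

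The 36 libraries held 32454257 to 37178107 counts, and 13251 to 14273 genes reached at least 10 counts in the 6 compared. Values are CPM, counts divided by library size as scaled by the trimmed mean method (TMM), and a gene is called at a Benjamini-Hochberg adjusted p under 0.05. Eif2ak3, the transcript of PERK, was higher in all PERK WT libraries than in any Perk-null library of these treatments, so no library went against its genotype label. BtdCPU replicate 2 stood apart from its group. Its counts differed from those of replicates 1 and 3 by a chi-square of 88.5 and 116 per degree of freedom, against 17.5 between those replicates. On the second principal component of the 9 PERK WT libraries, with 11.03% of the variance, it lay at 0.18, against 53.6 and 51.6 for the other BtdCPU libraries and -39.6 to -20.5 for DMSO. Halofuginone replicate 3 was the less typical library of its group, at 71.8 and 77.8 per degree of freedom against 14.2. This distance was not particular to halofuginone. In PERK WT DMSO, replicate 3 stood at 35.96 and 72.1 per degree of freedom from replicates 1 and 2, against 17.6 between those. In every group of the series except PERK WT BtdCPU, replicates 1 and 2 were the closest pair. Il11, Gadd45a, Slc6a9, Tmem104, G6pdx, Kif20a, P2rx7, Prc1, Tiparp, Pdia4, Wdr43 and Rpl12 overlap another tested gene in RefSeq, and since the use of strand in counting is not given, their counts can hold its reads.

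Fibroblast markers were abundant in all 6 libraries. All 10 fibroblast markers were found, with a summed level of 20044 to 23163 CPM with BtdCPU and 12211 to 14142 CPM with halofuginone, and 1 was called higher and 6 lower with halofuginone. Of 7 epithelial markers, 4 were tested and 3 called higher, with a summed level of 0.213 to 0.595 CPM with BtdCPU and 17.7 to 24.0 CPM with halofuginone, carried by Krt8 (9.72, 14.3 and 9.47 CPM with halofuginone) and Krt18 (7.52, 8.62 and 6.35 CPM). Epcam stayed at a mean of 0.0581 CPM with BtdCPU and 0.0407 CPM with halofuginone, and Krt5 had at most 3 counts in every library. Of 5 endothelial markers, 2 of 4 tested were called higher, with sums of 0.395 to 1.65 and 3.22 to 5.33 CPM, while Emcn had at most 3 counts in every library. The blood and macrophage list summed to 3.91 to 5.33 CPM with BtdCPU and 2.26 to 4.35 CPM with halofuginone, with Lyz2 and Hbb-bs at most 3 counts. Neural sums were 61.3 to 77.0 and 26.6 to 42.6 CPM, muscle sums 0.255 to 0.890 and 0.381 to 0.586 CPM, and adipocyte sums 7.31 to 9.85 and 5.52 to 8.64 CPM, with the defining markers Sox2, Gfap, Sox10, Myod1, Myog, Des, Actc1, Adipoq and Plin1 at most 3 counts. The part of these markers in the results was not tested. In bulk RNA, fewer cells of a type and less RNA per cell cannot be told apart.

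Halofuginone and BtdCPU left the fibroblasts in very different transcript states. Of 16065 genes tested, 5212 were higher with halofuginone than with BtdCPU (32.4%) and 5127 were lower (31.9%), and 2844 and 2333 of these differed by more than 2-fold. The 3 halofuginone and 3 BtdCPU values did not overlap for 10040 tested genes, 62.5%. Read against DMSO, halofuginone raised 5577 genes (34.7%) and lowered 5372 (33.4%), and BtdCPU raised 2075 (12.9%) and lowered 1496 (9.31%). Both counts use the same DMSO libraries. On library totals without TMM, BtdCPU raised 1611 and lowered 1961 genes, halofuginone raised 4933 and lowered 6062, and 4915 genes were higher and 5427 lower between the compounds, so the split of calls depends on the scaling. Fitted on the BtdCPU and DMSO libraries alone, 835 genes were called for BtdCPU, and without BtdCPU replicate 2 the count was 5062. All lists below are read against the shares of 32.4% and 31.9%. The list medians below are log2 fold changes of halofuginone minus BtdCPU, whose median over all tested genes was 0.00.

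The overall height of the ISR did not separate the compounds. The ISR score, the mean log2 CPM of 25 genes of ATF4 signalling and of serine and asparagine synthesis minus its DMSO mean, was 1.83, 1.33 and 1.73 with BtdCPU and 1.74, 1.76 and 1.37 with halofuginone. The group means were 1.63 ± 0.261 and 1.63 ± 0.219 (SD, n = 3 each), and the DMSO libraries lay between -0.11 and 0.09. The score groups overlapped, and each was lowered by 1 library, BtdCPU replicate 2 and halofuginone replicate 3. The difference was -0.00 (halofuginone minus BtdCPU), and -0.15 without BtdCPU replicate 2.

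**Figure D1:**
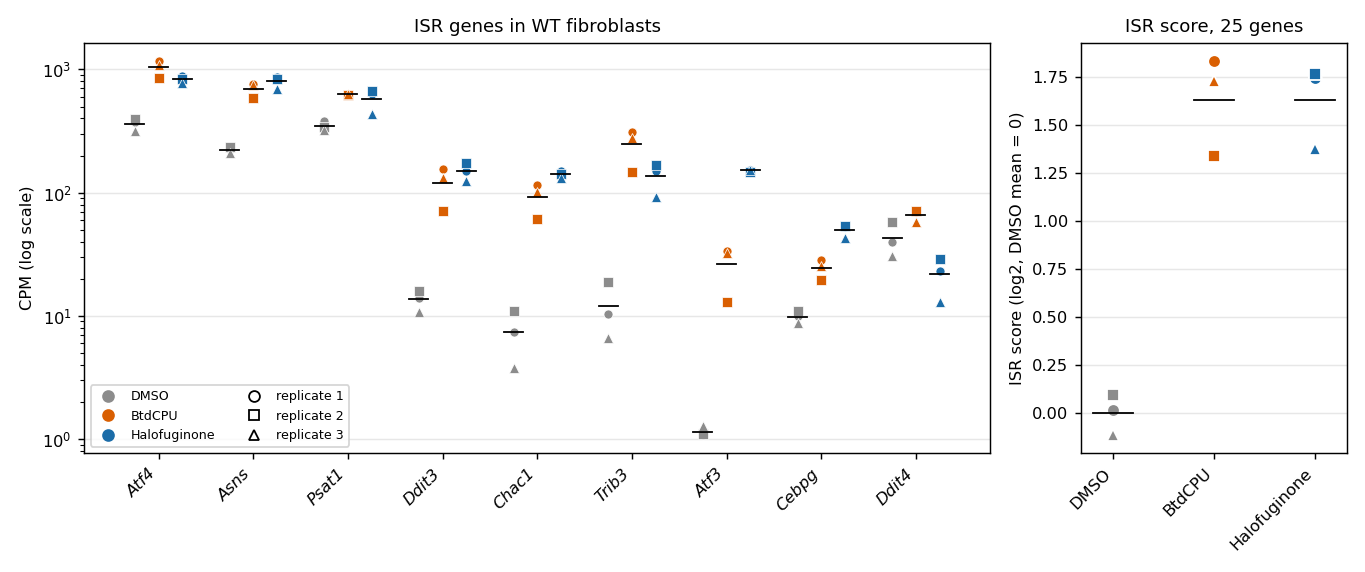
CPM of 9 ISR genes on a log scale (left) and the 25-gene ISR score as a log2 difference from the DMSO mean (right) in the 9 PERK WT libraries, with symbols for replicates and lines for group means. Scores of both compounds lie between 1.33 and 1.83, whereas Atf3 and Cebpg are higher and Ddit4 lower in every halofuginone library than in every BtdCPU library.

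Beneath this like score, single ISR regulators differed in both directions. Of the 13 tested members of the list of ISR transcription factors and feedback genes (Batf2 was too low to test), 6 were higher and 4 lower with halofuginone, median 0.32. Over all tested genes the shares were 32.4% higher and 31.9% lower, so with 13 members these counts are not read as a trait of the list. Without BtdCPU replicate 2 the median was 0.04, with 6 higher and 5 lower. Atf4 itself was read at 1163, 855 and 1096 CPM with BtdCPU and 881, 829 and 782 CPM with halofuginone, and the groups overlapped slightly through BtdCPU replicate 2. The difference, log2 fold change -0.32 (SE 0.107, edgeR adjusted p 0.00956), was called, but not without BtdCPU replicate 1 (edgeR adjusted p 0.0806) nor in a fit of the compared groups alone (0.0983). Against DMSO (371, 393 and 317 CPM), Atf4 had a log2 fold change of 1.53 with BtdCPU and 1.20 with halofuginone.

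The largest gap among these regulators was that of Atf3, a stress-induced repressor and activator of the ATF family. It went from 1.09, 1.096 and 1.27 CPM in DMSO to 33.6, 12.96 and 32.1 CPM with BtdCPU and 153, 148 and 154 CPM with halofuginone. Every halofuginone library lay more than 4-fold above every BtdCPU library, log2 fold change 2.53 (SE 0.197, edgeR adjusted p 1.56e-12). Cebpg, a dimer partner of ATF4, showed the same order with no overlap, at 28.4, 19.7 and 25.2 CPM with BtdCPU and 52.4, 53.7 and 43.1 CPM with halofuginone, log2 fold change 1.02 (SE 0.138, edgeR adjusted p 1.33e-07). Ppp1r15a encodes GADD34, which brings the phosphatase back to eIF2 alpha, and it stood at 231, 69.4 and 193 CPM with BtdCPU and 317, 296 and 359.5 CPM with halofuginone, log2 fold change 0.98 (SE 0.211, edgeR adjusted p 0.000174). BtdCPU replicate 2 was the lowest library for all these genes, and without it the differences were 2.20, 0.89 and 0.61, each still called.

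Among other ISR genes, Trib3 and Ddit4 were called lower with halofuginone than with BtdCPU, and Ddit3 was not called. Trib3, a pseudokinase that restrains ATF4, stood at 313, 147 and 277 CPM with BtdCPU and 151, 166 and 91.8 CPM with halofuginone. The groups overlapped at BtdCPU replicate 2, log2 fold change -0.85 (SE 0.262, edgeR adjusted p 0.00549), and the call was lost without BtdCPU replicate 1 (edgeR adjusted p 0.0526). Ddit4 encodes REDD1, an inhibitor of mTORC1, and it was 39.7, 58.3 and 30.4 CPM in DMSO, 69.3, 71.2 and 57.4 CPM with BtdCPU and 23.3, 29.1 and 12.9 CPM with halofuginone. The treated groups did not overlap, log2 fold change -1.60 (SE 0.269, edgeR adjusted p 5.34e-06). Halofuginone lowered Ddit4 against DMSO (-0.98, edgeR adjusted p 0.00181), and BtdCPU gave 0.62, which was not called (edgeR adjusted p 0.0847). Ddit3, which encodes CHOP, was 156, 70.9 and 133 CPM with BtdCPU and 149, 173 and 125 CPM with halofuginone and was not called, log2 fold change 0.32 (SE 0.203, edgeR adjusted p 0.172). Without BtdCPU replicate 1 its difference was 0.55 (edgeR adjusted p 0.0302), and its counts can hold reads of the overlapping gene Mbd6.

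The kinases and the phosphatase were a mixed set. Of 18 genes for the eIF2 alpha kinases, phosphatase subunits and eIF2B, 6 were higher and 5 lower, median 0.17. The median was 0.09 without BtdCPU replicate 2, 0.04 without halofuginone replicate 2 and 0.10 with no filter on low counts. Eif2ak1, the gene of HRI, was 41.8, 42.8 and 45.6 CPM with BtdCPU and 32.8, 30.8 and 37.2 CPM with halofuginone, log2 fold change -0.37 (SE 0.0936, edgeR adjusted p 0.000972), although it overlaps Aimp2 and Ankrd61. Eif2ak4, the gene of GCN2, was 54.02, 72.03 and 65.6 CPM with BtdCPU and 57.5, 56 and 74.1 CPM with halofuginone, overlapping and not called, log2 fold change -0.03 (SE 0.126, edgeR adjusted p 0.843). Eif2ak3, the gene of PERK, was 16.4, 27.1 and 17.2 CPM with BtdCPU and 29.3, 32.7 and 55.5 CPM with halofuginone, log2 fold change 0.95 (SE 0.181, edgeR adjusted p 3.12e-05), with the highest value in halofuginone replicate 3. Eif2ak2, the gene of PKR, was not called, log2 fold change 0.22 (SE 0.173, edgeR adjusted p 0.272), but was called without BtdCPU replicate 2 (difference 0.50, edgeR adjusted p 0.0125). Ppp1r15b, the constitutive phosphatase partner, was higher with halofuginone, log2 fold change 1.14 (SE 0.0909, edgeR adjusted p 2.59e-12), and Eif2b4, a subunit of the exchange factor eIF2B, was lower, log2 fold change -1.44 (SE 0.09599, edgeR adjusted p 5.24e-14).

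Most serine, one-carbon and asparagine enzymes were raised by both compounds, 9 of 12 by halofuginone and 10 of 12 by BtdCPU against the same DMSO libraries. Halofuginone lowered 2 of the 12 against DMSO, and BtdCPU lowered 0. Between the compounds, of these 12 serine, one-carbon and asparagine enzymes, 1 (Got1, an aspartate aminotransferase) was higher and 5 were lower with halofuginone, median -0.24. Got1 was not called without BtdCPU replicate 2 (0.23, edgeR adjusted p 0.0678), where 0 were higher and 6 lower, nor in the compared groups alone (edgeR adjusted p 0.074). Asns, asparagine synthetase, was 757, 588 and 746 CPM with BtdCPU and 871, 835 and 689 CPM with halofuginone. The groups overlapped and it was not called, log2 fold change 0.20 (SE 0.103, edgeR adjusted p 0.0958), whereas RLE scaling, DESeq2 and leaving out halofuginone replicate 3 each called it at 0.23 to 0.26, and the fit with a replicate block at 0.19 (edgeR adjusted p 0.0437). Psat1 of the serine pathway overlapped too, at 635, 619 and 633 CPM with BtdCPU and 634, 668 and 432 CPM with halofuginone, log2 fold change -0.12 (SE 0.111, edgeR adjusted p 0.339). Phgdh, the first serine enzyme, was 92.9, 88.7 and 87.97 CPM in DMSO, 133, 124 and 135 CPM with BtdCPU and 86.7, 75.2 and 60.9 CPM with halofuginone, without overlap between the treated groups, log2 fold change -0.82 (SE 0.105, edgeR adjusted p 5.45e-08). Mthfd1, a cytosolic folate enzyme, had the largest drop of the list, from 280.0, 223 and 259 CPM with BtdCPU to 131, 125 and 97.01 CPM with halofuginone, log2 fold change -1.11 (SE 0.118, edgeR adjusted p 1.36e-09). Against DMSO, Mthfd1 had a log2 fold change of -0.94 with halofuginone and 0.17 with BtdCPU. Mthfd2, its mitochondrial relative and a common ISR marker, stood at 510.3, 319 and 481 CPM with BtdCPU and 333, 318 and 266 CPM with halofuginone, with halofuginone replicate 1 above BtdCPU replicate 2, log2 fold change -0.51 (SE 0.114, edgeR adjusted p 0.000222). Mthfd2 was singled out after its values were seen, as were Gdf15, Fgf21, Vegfa, Cdkn1a, Lif, Cxcl1, Ptgs2, Gadd45a, Krt8 and Krt18.

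Proline genes are of interest because halofuginone blocks proline charging. Of 11 genes of proline synthesis and breakdown, 1 was higher with halofuginone and 9 were lower, median -0.61. P4ha2, a prolyl hydroxylase of collagen, was 67.4, 58.99 and 61.7 CPM with BtdCPU and 18.5, 14.98 and 15.3 CPM with halofuginone, log2 fold change -1.95 (SE 0.1198, edgeR adjusted p 9.87e-15). Its relative P4ha3 followed at 63.9, 62.9 and 102 CPM with BtdCPU and 22.6, 21.02 and 44.1 CPM with halofuginone, log2 fold change -1.38 (SE 0.263, edgeR adjusted p 3.22e-05). The member that rose was Prodh, the first enzyme of proline breakdown, at 4.05, 4.51 and 3.23 CPM with BtdCPU and 8.92, 9.09 and 7.68 CPM with halofuginone, log2 fold change 1.12 (SE 0.263, edgeR adjusted p 0.000431). None of these groups overlapped.

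In the main fit the tRNA synthetases split by compartment. Of 20 cytosolic synthetases, 11 were higher and 4 lower with halofuginone, median 0.28, while of 17 mitochondrial synthetases 5 were higher and 11 lower, median -0.41. Eprs, the target of halofuginone, was 509, 483 and 529 CPM in DMSO, 1107, 814 and 1050 CPM with BtdCPU and 1448, 1371 and 1214 CPM with halofuginone, log2 fold change 0.44 (SE 0.101, edgeR adjusted p 0.00032). Rars, for arginine, differed most, from 724, 648 and 608 CPM with BtdCPU to 1702, 1682 and 1418 CPM with halofuginone, log2 fold change 1.28 (SE 0.115, edgeR adjusted p 3.88e-11). Qars, for glutamine, moved against the list and fell below its DMSO level, with 282, 295 and 278 CPM under BtdCPU and 138, 127 and 119 CPM under halofuginone, log2 fold change -1.15 (SE 0.0826, edgeR adjusted p 2.56e-13). The mitochondrial Cars2 stood at 25.2, 31.4 and 22.2 CPM with BtdCPU and 9.26, 9.79 and 7.55 CPM with halofuginone, log2 fold change -1.56 (SE 0.142, edgeR adjusted p 4.9e-11). A fit of the compared groups alone called fewer synthetases. In it 7 cytosolic ones were higher, and of the mitochondrial ones 5 were higher and 6 lower, close to an even split. Across the alternative settings with all libraries kept, 2 to 4 cytosolic ones were lower.

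Amino acid transporters and glutathione genes showed smaller or opposite differences. Of 16 transporters, 2 (Slc7a1 and Slc1a4) were higher and 4 lower, median -0.18, and without BtdCPU replicate 2, 0 were higher and 6 lower. Slc1a4, a neutral amino acid carrier, then had a difference of 0.14 (edgeR adjusted p 0.205), against 0.32 with all libraries. Slc7a1, the arginine carrier, was 244, 96.6 and 239 CPM with BtdCPU and 259, 243 and 291 CPM with halofuginone, overlapping, log2 fold change 0.45 (SE 0.188, edgeR adjusted p 0.0357), and without BtdCPU replicate 2 its call was lost (edgeR adjusted p 0.414). Slc6a9, the glycine carrier, was higher with BtdCPU at 181, 119.9 and 171 CPM than with halofuginone at 78.03, 85.9 and 39.9 CPM, without overlap, log2 fold change -1.21 (SE 0.2001, edgeR adjusted p 4.22e-06). Of 9 transsulfuration and glutathione genes, 2 were higher and 4 lower, median -0.71, or -0.40 in the compared groups alone. Chac1, which degrades glutathione, was 116, 61.1 and 101 CPM with BtdCPU and 150.4, 141 and 132 CPM with halofuginone, without overlap, log2 fold change 0.60 (SE 0.195, edgeR adjusted p 0.00777). Without BtdCPU replicate 2 the Chac1 difference was 0.37 and not called (edgeR adjusted p 0.0933). Gsr, glutathione reductase, was lower, 88.8, 88.5 and 79.2 CPM with BtdCPU against 38.02, 34.2 and 26.1 CPM with halofuginone, log2 fold change -1.38 (SE 0.14, edgeR adjusted p 4.66e-10).

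Secreted ISR factors were a mixed list. Of 9 members, 5 were higher and 1 lower with halofuginone, median 1.47. The higher members were Gdf15, Vegfa, Cxcl10, Il6 and Il11. Cxcl10, Il6 and Il11 are also members of the cytokine list below, where they are counted again. Fgf21, Adm2 and Angptl6 were not called. Gdf15, the hormone of cell stress, was 0.956, 0.454 and 1.07 CPM with BtdCPU and 5.98, 8.36 and 2.68 CPM with halofuginone, without overlap, log2 fold change 2.79 (SE 0.402, edgeR adjusted p 4.42e-07). Fgf21, another stress hormone, overlapped at 7.25, 2.35 and 6.06 CPM with BtdCPU and 7.4, 11.99 and 3.45 CPM with halofuginone and was not called, log2 fold change 0.55 (SE 0.393, edgeR adjusted p 0.221). Vegfa, the vascular growth factor, stood at 119.6, 68.9 and 106 CPM with BtdCPU and 306, 284 and 224 CPM with halofuginone, log2 fold change 1.47 (SE 0.141, edgeR adjusted p 1.49e-10). Stc2, a glycoprotein hormone, was the member lower with halofuginone, 55.3, 26.4 and 46.3 CPM with BtdCPU against 33.2, 28.5 and 16.96 CPM with halofuginone, overlapping at BtdCPU replicate 2, log2 fold change -0.70 (SE 0.197, edgeR adjusted p 0.00259), and was not called in the compared groups alone (edgeR adjusted p 0.0714).

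The mitochondrial ribosomal RNAs were far higher with BtdCPU than with halofuginone. They appear in the table as Rnr1 and Rnr2, names matched here to the 12S and 16S RNAs of mitochondrial DNA because the other mitochondrial genes of the table also lack the mt- prefix. Rnr1 was 107, 138 and 102 CPM in DMSO, 1583, 858 and 1425 CPM with BtdCPU and 81.6, 79.2 and 109 CPM with halofuginone, log2 fold change -3.84 (SE 0.251, edgeR adjusted p 3.31e-14). Rnr2 was 879.7, 866 and 724 CPM in DMSO, 6030, 3258 and 5904 CPM with BtdCPU and 424, 321 and 289.8 CPM with halofuginone, log2 fold change -3.88 (SE 0.309, edgeR adjusted p 2.94e-12). Every BtdCPU library lay above every DMSO and halofuginone library for both RNAs, with replicate 2 the lowest of the BtdCPU group. The labels name ribosomal depletion in the library preparation, and its part in these levels was not tested.

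The mRNAs of mitochondrial DNA did not follow the ribosomal RNAs. Together the 13 mRNAs took 1.81%, 3.72% and 1.79% of the counts with BtdCPU, 2.97%, 2.60% and 1.85% with halofuginone and 4.03%, 4.74% and 3.59% in DMSO. The treated groups overlapped, and BtdCPU replicate 2 was the highest treated library. Of the 13, 4 were called higher with halofuginone and 0 lower, median 0.22. Without BtdCPU replicate 2, 9 were called higher, median 0.71, and without BtdCPU replicate 1, BtdCPU replicate 3 or halofuginone replicate 1, 0 were called. ND4, a complex I subunit whose reading frame overlaps ND4L, was 823, 1790 and 949 CPM with BtdCPU and 2216, 1778 and 1453 CPM with halofuginone, log2 fold change 0.61 (SE 0.225, edgeR adjusted p 0.0183). The count ratio of ribosomal RNA to mRNA was 0.393, 0.109 and 0.375 with BtdCPU, 0.0154, 0.0145 and 0.0191 with halofuginone, and 0.0245, 0.0218 and 0.0221 in DMSO. Thus each BtdCPU library held a ratio above, and each halofuginone library a ratio below, every DMSO library.

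**Figure D2:**
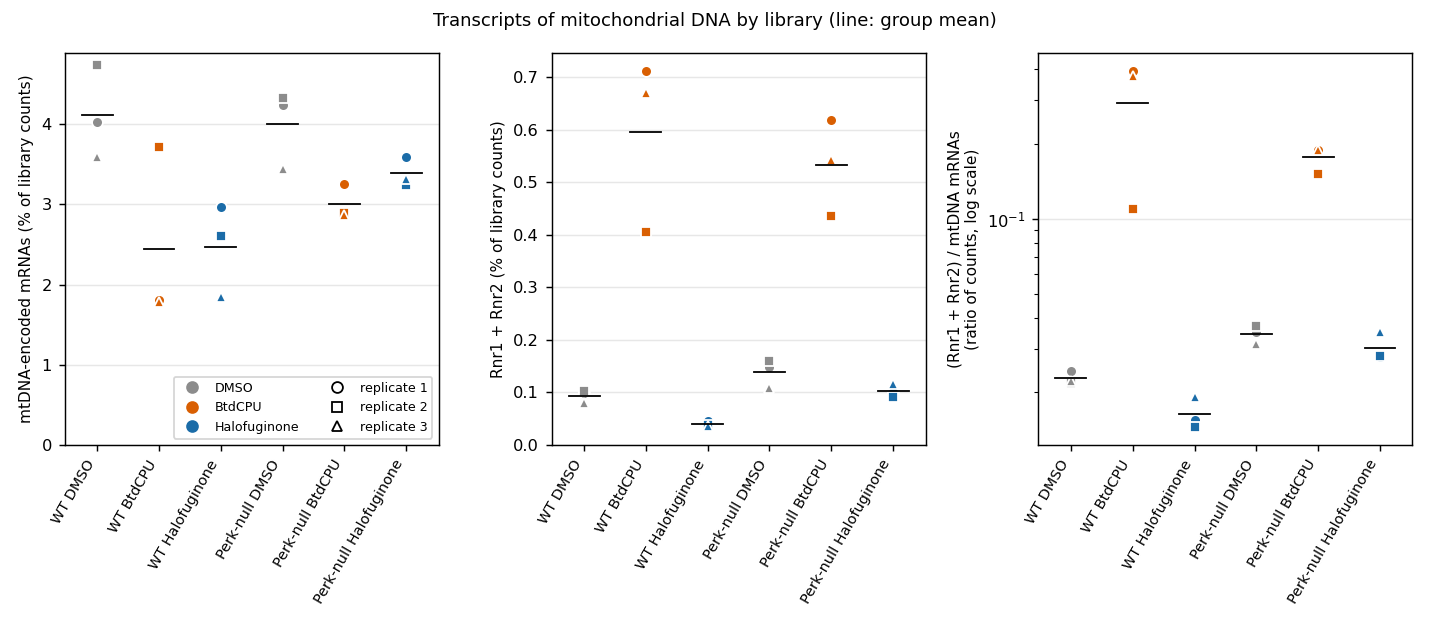
Share of library counts of the 13 mRNAs of mitochondrial DNA (left), share of Rnr1 and Rnr2 (centre) and the ratio of both on a log scale (right), by library in PERK WT and Perk-null cells, with lines for group means. In both genotypes the BtdCPU libraries hold the highest ratios, 0.109 to 0.393 in PERK WT and 0.151 to 0.190 in Perk-null cells.

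Nuclear genes of the respiratory chain were lower with halofuginone. Of 36 nuclear subunits of complex I, 0 were higher and 33 lower, median -0.58, and of 32 nuclear subunits of complexes II to V, 0 were higher and 26 lower, median -0.41. Against DMSO, halofuginone lowered 32 of the 36 complex I subunits and BtdCPU lowered 1, or 7 without BtdCPU replicate 2. Ndufa8 of complex I was 118, 102 and 115 CPM in DMSO, 119, 109.8 and 118 CPM with BtdCPU and 38.9, 38.4 and 29.6 CPM with halofuginone, log2 fold change -1.70 (SE 0.107, edgeR adjusted p 1.76e-14). Uqcrh of complex III fell with both, from 141, 156 and 107 CPM to 39.8, 106 and 41.7 CPM with BtdCPU and 35.4, 33.2 and 26.7 CPM with halofuginone. Without BtdCPU replicate 2 the Uqcrh difference was -0.36 (edgeR adjusted p 0.0701), and the called counts were 26 for complex I and 17 for complexes II to V. Without halofuginone replicate 3 they were 27 and 20.

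Mitochondrial ribosome and quality control genes moved less evenly. Of 73 mitochondrial ribosomal proteins, 6 were higher and 35 lower with halofuginone, median -0.31, with Mrpl34 at 15.4, 24.5 and 16.5 CPM under BtdCPU and 4.58, 4.84 and 3.48 CPM under halofuginone, log2 fold change -2.13 (SE 0.198, edgeR adjusted p 7.69e-11). Of 17 mitochondrial chaperones and proteases, 4 were higher and 10 lower, median -0.26. Hspa9, the mitochondrial HSP70 and an ATF4 target, rose in steps from 999, 909 and 982 CPM in DMSO to 2002, 1438 and 1915 CPM with BtdCPU and 3209, 2925 and 2870 CPM with halofuginone, log2 fold change 0.75 (SE 0.0958, edgeR adjusted p 4.77e-08). Phb, prohibitin of the inner membrane, moved the other way at 19.02, 24.7 and 18.1 CPM with BtdCPU and 8.02, 7.62 and 4.22 CPM with halofuginone, log2 fold change -1.64 (SE 0.245, edgeR adjusted p 8.35e-07).

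Txnip was the clearest switch between the compounds. It encodes thioredoxin-interacting protein, an arrestin-like protein that removes glucose transporters from the cell surface and that responds to glucose metabolites through MondoA and ChREBP at carbohydrate response elements, paired E-box-like sites. Its RefSeq window of GRCm38.p6, 250 bases on the plus strand of chr3:96557707-96557956, is shown with the paired site, CACGNG, 5 bases, CACGNG, in capitals from base -85 to -69.
Txnip: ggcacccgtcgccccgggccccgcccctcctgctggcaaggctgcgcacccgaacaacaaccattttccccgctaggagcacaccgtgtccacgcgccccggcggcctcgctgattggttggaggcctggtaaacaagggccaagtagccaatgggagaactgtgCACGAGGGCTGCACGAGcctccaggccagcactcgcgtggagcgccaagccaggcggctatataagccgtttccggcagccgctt
This arrangement on either strand was found in 10 of 11158 tested genes with a window (0.0896%) and in 15 of all 32851 windows (0.0457%). The motif was added after the values were seen. Txnip was 21.4, 23.5 and 15.7 CPM in DMSO, 2.24, 11.8 and 2.41 CPM with BtdCPU and 454, 446 and 563 CPM with halofuginone. Every BtdCPU library was under and every halofuginone library far above all DMSO libraries, log2 fold change 6.45 (SE 0.409, edgeR adjusted p 2.05e-14). BtdCPU replicate 2 was nearest to DMSO, and without it the difference was 7.71. Arrdc4, its close relative, went from 2.51, 3.32 and 2.79 CPM to 2.27, 1.67 and 1.46 CPM with BtdCPU and 41.9, 46.8 and 41.4 CPM with halofuginone, log2 fold change 4.59 (SE 0.215, edgeR adjusted p 3.99e-17). Gm15441 overlaps Txnip on the opposite strand and showed the same pattern at 0.923, 3.402 and 1.19 CPM with BtdCPU and 140.2, 125 and 165 CPM with halofuginone, but its reads and those of Txnip cannot be told apart without a stated use of strand in the counting.

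Most other genes of the glucose list were lower with halofuginone. Of 23 genes of glucose uptake and glycolysis, a list that includes Txnip and Arrdc4, 5 were higher and 15 lower, median -0.64. Pfkm, a phosphofructokinase subunit that overlaps Senp1, was 69.2, 84.8 and 68.7 CPM with BtdCPU and 7.83, 6.01 and 5.03 CPM with halofuginone, log2 fold change -3.56 (SE 0.143, edgeR adjusted p 1.82e-18). Pfkl, another subunit, followed at 141, 149 and 159 CPM with BtdCPU and 47.7, 44.2 and 41.7 CPM with halofuginone, log2 fold change -1.75 (SE 0.121, edgeR adjusted p 1.07e-13). Ogt, the enzyme that attaches GlcNAc to proteins, was on opposite sides of DMSO (92, 105 and 93.4 CPM), at 239.7, 164 and 166 CPM with BtdCPU and 37.5, 29.8 and 27.5 CPM with halofuginone, log2 fold change -2.59 (SE 0.166, edgeR adjusted p 2.45e-14). Eef2k, the kinase that slows translation elongation, was likewise 54.9, 56.7 and 61.9 CPM in DMSO, 104, 76.1 and 112 CPM with BtdCPU and 13.04, 13.8 and 10.3 CPM with halofuginone, log2 fold change -2.97 (SE 0.147, edgeR adjusted p 1.11e-16). Beside Txnip, Arrdc4, Gm15441, Hist1h1c and Rnr2, the other genes named for lying on opposite sides of DMSO were Nabp1, higher with halofuginone (log2 fold change 3.68), and Tmem104 and Rnf150, lower (-2.86 and -2.66).

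**Figure D3:**
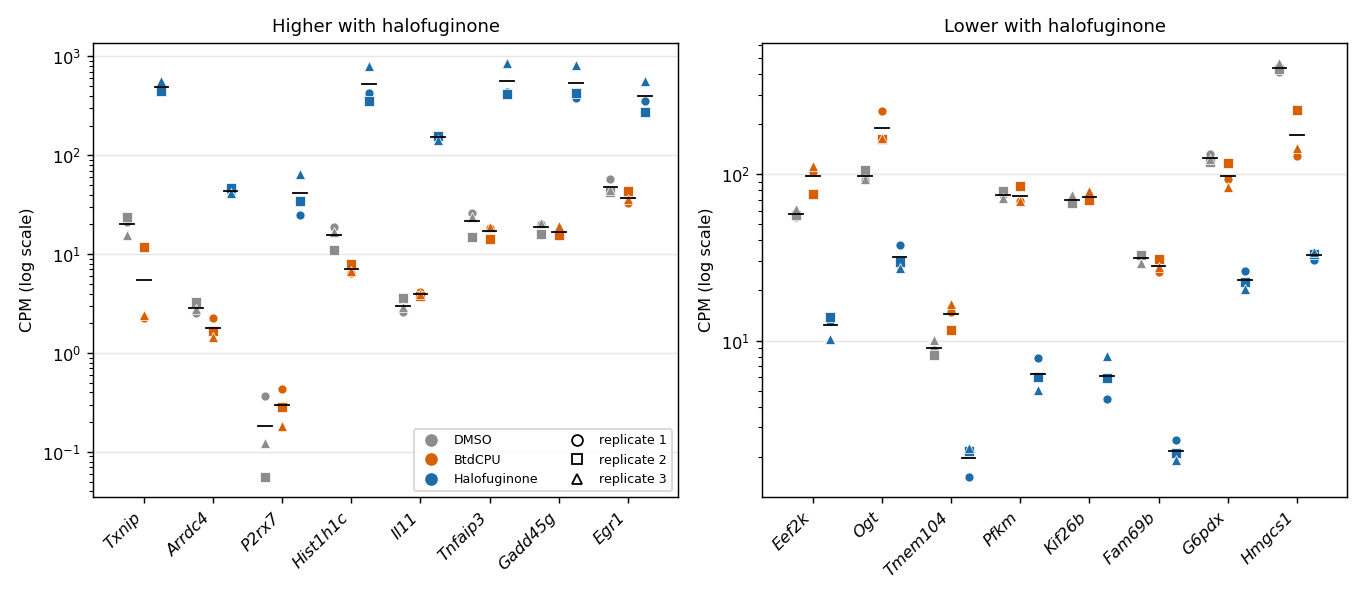
CPM on a log scale in the 9 PERK WT libraries for 8 genes higher (left) and 8 genes lower (right) with halofuginone than with BtdCPU, with symbols for replicates and lines for group means. Txnip and Arrdc4 lie below DMSO with BtdCPU and above it with halofuginone, whereas Eef2k and Ogt show the reverse.

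Most genes of the lipid and antioxidant lists were lower with halofuginone. Of 25 sterol synthesis genes, 3 were higher and 13 lower than with BtdCPU, median -0.47. Against DMSO, halofuginone lowered all 25 and BtdCPU lowered 24. Hmgcs1, the synthase before the rate-limiting step, was 411, 431 and 464 CPM in DMSO, 128, 244 and 144 CPM with BtdCPU and 30.3, 32.95 and 34.3 CPM with halofuginone, log2 fold change -2.40 (SE 0.194, edgeR adjusted p 3.57e-12). BtdCPU replicate 2 was the highest BtdCPU library, and without it the list median was -0.09 with 4 higher and 12 lower. Of 19 genes of fatty acid synthesis and PPAR targets, 3 were higher and 14 lower, median -1.01, or -0.85 with Ehhadh, absent under halofuginone, set to the bound that 3 counts a library allow. Angptl4, a PPAR target, was the largest riser at 5.37, 16.8 and 7.31 CPM with BtdCPU and 48.4, 47.2 and 37.6 CPM with halofuginone, log2 fold change 2.17 (SE 0.253, edgeR adjusted p 8.43e-09), a level near that of DMSO (34.6, 40.5 and 49.5 CPM). Acot1, an acyl-CoA thioesterase, was 53.2, 54.99 and 48.8 CPM with BtdCPU and 6.04, 5.28 and 5.15 CPM with halofuginone, log2 fold change -3.25 (SE 0.165, edgeR adjusted p 1.79e-16). Of 18 NRF2 targets, 1 was higher and 14 lower, median -0.97, with G6pdx of the pentose phosphate pathway at 93.8, 117 and 83.4 CPM with BtdCPU and 26.1, 22.6 and 20.3 CPM with halofuginone, log2 fold change -2.09 (SE 0.157, edgeR adjusted p 6.77e-13).

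**Figure D4:**
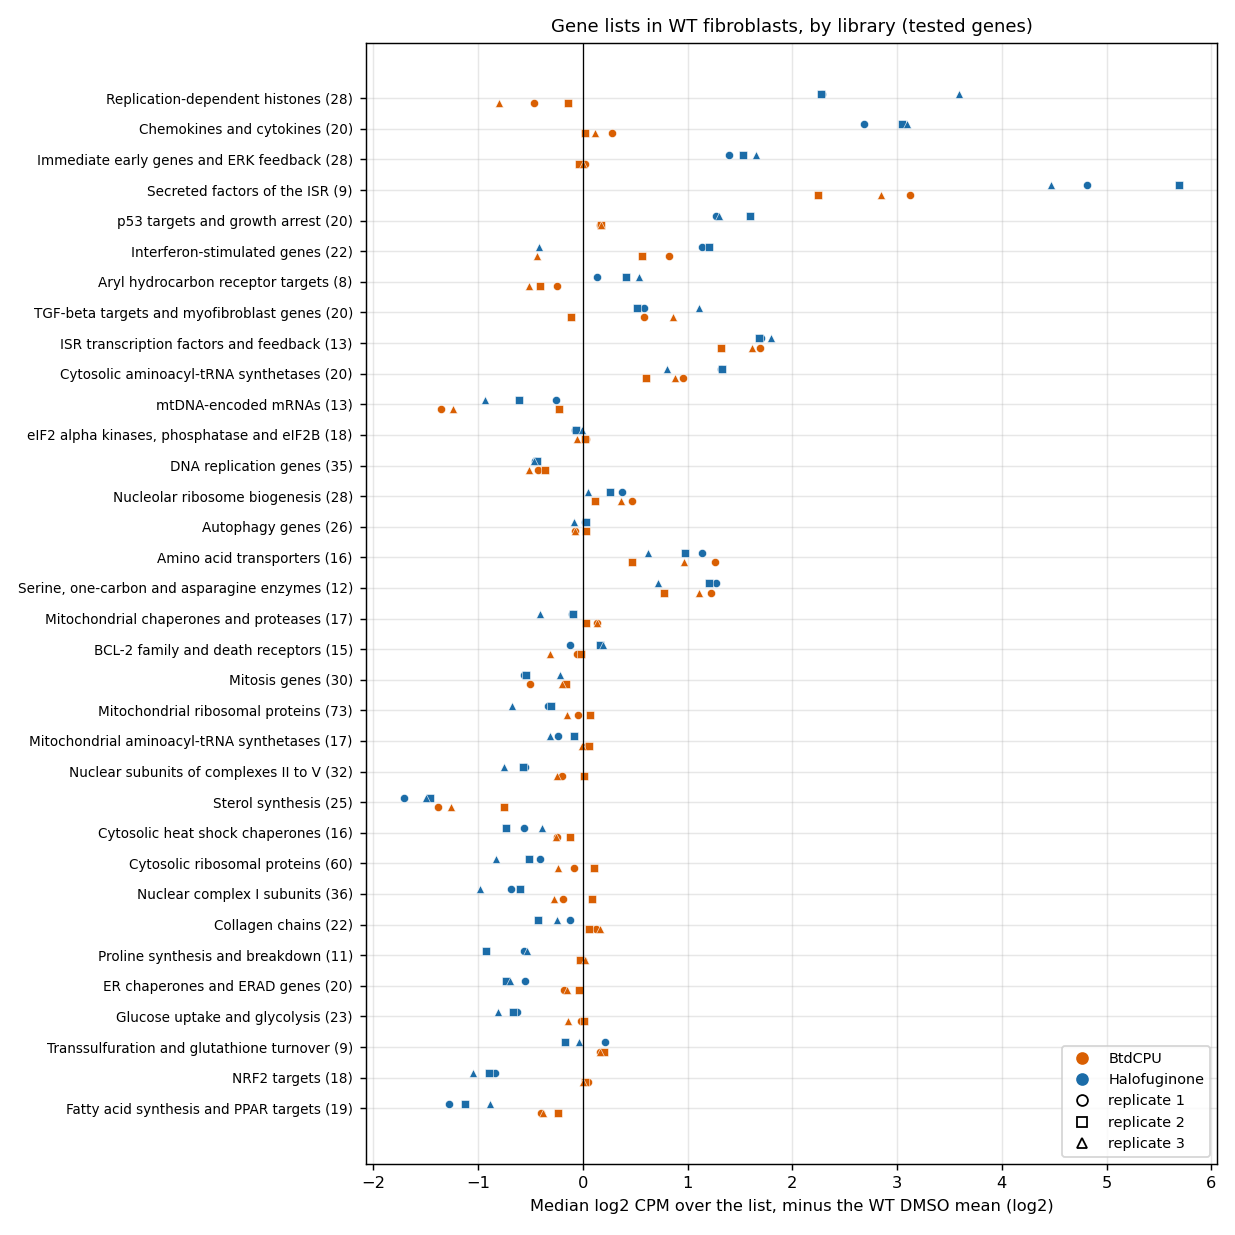
Median log2 CPM of each of 34 gene lists minus the PERK WT DMSO mean, 1 point for each BtdCPU and halofuginone library, lists ordered by their median difference and labelled with the number of tested genes. The histone and cytokine lists lie above 2 in every halofuginone library and below 0.5 in every BtdCPU library, and the 25 sterol genes lie below DMSO in all 6.

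Histone genes rose with halofuginone and not with BtdCPU. Of 28 replication-dependent histone genes, 27 were higher and 0 lower, median 3.44. Against DMSO, halofuginone raised 26 and BtdCPU raised 0 and lowered 1. The copies are close in sequence, so reads could be split among them, and these transcripts normally end without a poly(A) tail, so that mRNA selection, named in the labels, bears on their recovery. Its part was not tested. Hist1h1c, a linker histone, was 18.7, 10.9 and 16.9 CPM in DMSO, 6.46, 7.97 and 6.83 CPM with BtdCPU and 429, 352 and 799 CPM with halofuginone, log2 fold change 6.21 (SE 0.291, edgeR adjusted p 3.99e-17). Hist1h2bc, a core histone, was 4.58, 5.36 and 3.72 CPM with BtdCPU and 160.2, 159 and 306 CPM with halofuginone, log2 fold change 5.51 (SE 0.276, edgeR adjusted p 1.35e-16). Halofuginone replicate 3 was the highest library for both, and without it 26 of 28 members were called higher, median 2.92. Without BtdCPU replicate 2 the median was 4.33. Hist1h1d, Hist1h2bj, Hist1h2be and Hist1h2bg were also among the 12 largest rises, with differences of 6.67, 5.83, 5.57 and 5.42. Of 35 DNA replication genes, which are expressed in the same phase of the cell cycle, 13 were higher and 10 lower, median 0.06, with 7 higher without BtdCPU replicate 3 and 8 higher and 6 lower in the compared groups alone. Each compound lowered 24 of these 35 against the shared DMSO libraries.

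Cytokine genes formed the second large rise with halofuginone. Of 20 chemokine, cytokine and NF-kappa-B target genes, 18 were higher and 1 lower, median 2.38. Il11, a cytokine of the IL-6 family, was 2.6, 3.57 and 2.91 CPM in DMSO, 4.12, 3.799 and 3.99 CPM with BtdCPU and 156, 158 and 144 CPM with halofuginone, log2 fold change 5.26 (SE 0.226, edgeR adjusted p 4.7e-18). Its family member Lif stood at 7.38, 4.88 and 5.42 CPM with BtdCPU and 186, 209 and 156 CPM with halofuginone, log2 fold change 4.96 (SE 0.162, edgeR adjusted p 9.36e-21). Tnfaip3, a brake on NF-kappa-B, was 18.5, 14.3 and 19.04 CPM with BtdCPU and 438, 421 and 850.2 CPM with halofuginone, log2 fold change 5.04 (SE 0.311, edgeR adjusted p 1.05e-14). The neutrophil chemokine Cxcl1 went from 6.92, 5.81 and 3.05 CPM with BtdCPU to 126, 188 and 148 CPM with halofuginone, log2 fold change 4.88 (SE 0.486, edgeR adjusted p 3.63e-10). Ptgs2, the inducible cyclooxygenase, was already raised by BtdCPU from 247, 173 and 216 CPM to 882, 264 and 739 CPM and reached 3020, 2358 and 2883 CPM with halofuginone, log2 fold change 2.13 (SE 0.239, edgeR adjusted p 3.58e-09). Cx3cl1, a membrane-bound chemokine, was the member that fell, 83.6, 104 and 108 CPM with BtdCPU against 38.8, 46.5 and 46.4 CPM with halofuginone, log2 fold change -1.17 (SE 0.151, edgeR adjusted p 5.98e-08). P2rx7, the ATP-gated channel of inflammatory signalling, had the largest difference under the naming rule, from 0.428, 0.283 and 0.183 CPM with BtdCPU to 24.9, 34.4 and 64.6 CPM with halofuginone, log2 fold change 7.11 (SE 0.587, edgeR adjusted p 5.76e-12). Gm35546, a gene model named by the same rule, went from 0.264, 0.113 and 0.305 CPM with BtdCPU to 24.9, 24.2 and 43.3 CPM with halofuginone.

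Growth-signal and arrest genes rose beside them. Of 28 immediate early and ERK feedback genes, 21 were higher and 1 lower, median 1.65. Egr1, a serum-response transcription factor, was 57.1, 42.9 and 44.6 CPM in DMSO, 32.7, 43.3 and 36.2 CPM with BtdCPU and 356, 277 and 567 CPM with halofuginone, log2 fold change 3.42 (SE 0.226, edgeR adjusted p 4.37e-14). Fos, the AP-1 subunit, was 0.593, 1.47 and 0.945 CPM with BtdCPU and 11.1, 10.7 and 20.6 CPM with halofuginone, log2 fold change 3.80 (SE 0.398, edgeR adjusted p 9.4e-10). Etv5, an ERK target, was the member lower with halofuginone, with 18.2, 18.2 and 23.4 CPM in DMSO, 40.9, 31.8 and 60.4 CPM with BtdCPU and 21.4, 23.3 and 17.02 CPM with halofuginone, log2 fold change -1.11 (SE 0.193, edgeR adjusted p 9.73e-06). Of 20 p53 target and growth arrest genes, 13 were higher and 4 lower, median 1.05. Cdkn1a, the p21 inhibitor of the cell cycle, was 46.9, 58.03 and 56.6 CPM with BtdCPU and 137, 152 and 144 CPM with halofuginone, log2 fold change 1.42 (SE 0.138, edgeR adjusted p 1.84e-10). Gadd45g and Gadd45b, stress adaptors of the MAPK pathway, had differences of 5.02 and 3.23, while Gadd45a was raised by both compounds, from 8.51, 8.88 and 6.47 CPM to 218, 70.5 and 195 CPM with BtdCPU and 472, 595 and 508 CPM with halofuginone. Bax, which opens the outer mitochondrial membrane, moved the other way, log2 fold change -0.62 (SE 0.112, edgeR adjusted p 1.65e-05).

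Of 20 ER chaperone and ERAD genes, 5 were higher with halofuginone (Hspa5, Dnajb9, Herpud1, Derl3 and Xbp1) and 13 lower, median -0.63. Hspa5 encodes BiP, the main HSP70 of the ER, and was 1423, 1604 and 1143 CPM in DMSO, 1898, 1739 and 1689 CPM with BtdCPU and 4131, 3927 and 3036 CPM with halofuginone, log2 fold change 1.06 (SE 0.142, edgeR adjusted p 1.2e-07), although it overlaps Rabepk. Pdia4, a disulfide isomerase, fell from 403, 395 and 434 CPM with BtdCPU to 145, 113 and 135 CPM with halofuginone, log2 fold change -1.64 (SE 0.145, edgeR adjusted p 2.37e-11). Of 22 collagen chains, which are rich in proline, 4 were higher (Col5a3, Col7a1, Col8a1 and Col5a1) and 12 lower, median -0.60. Col3a1 was 1808, 1879 and 1410 CPM in DMSO, 1170, 1671 and 977 CPM with BtdCPU and 441, 467 and 263 CPM with halofuginone, log2 fold change -1.71 (SE 0.183, edgeR adjusted p 1.53e-09). Col5a3 was the largest riser at 22.9, 16.8 and 11.6 CPM with BtdCPU and 94.1, 92.8 and 78.8 CPM with halofuginone, log2 fold change 2.37 (SE 0.1998, edgeR adjusted p 9.08e-12). Of 20 TGF-beta targets and myofibroblast genes, 10 were higher and 3 lower (9 and 6 without BtdCPU replicate 2, 8 and 5 without halofuginone replicate 3), median 0.41, with Tgfb2 and Tgfb3, ligands of the pathway, moving in opposite directions (2.22 and -2.11).

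Ribosomal protein genes were lower with halofuginone in PERK WT cells as a broad, modest shift. Of 60 cytosolic ribosomal proteins, 2 were higher and 45 lower, median -0.49. Rpl12, a protein of the large subunit, was the largest riser, log2 fold change 0.66 (SE 0.147, edgeR adjusted p 0.000261). Against DMSO, halofuginone lowered 51 of the 60 and BtdCPU lowered 0, or 1 without its replicate 2. Without BtdCPU replicate 2, 35 were called lower. Of 28 nucleolar genes of ribosome assembly, 7 were higher and 8 lower, median -0.02, with Wdr43 at 470.2, 306 and 447 CPM with BtdCPU and 952, 896 and 758 CPM with halofuginone, log2 fold change 1.09 (SE 0.128, edgeR adjusted p 8.54e-09).

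Among the 12 largest falls under the naming rule, 8 had no called difference between BtdCPU and DMSO. Over all 16065 tested genes, BtdCPU raised 12.9% and lowered 9.31% against DMSO, so most genes had no such call. The count is therefore not a trait of these 12. Beside Rnr1, Rnr2 and Pfkm, the 12 were Tmem180, Fam69b, Kif26b, Zc4h2, Skida1, Efna4, Hspa12b, Sapcd2 and Rab3il1. Kif26b, a kinesin family member, was 67.2, 66.98 and 75.5 CPM in DMSO, 68.98, 69.96 and 79.3 CPM with BtdCPU and 4.43, 5.92 and 8.11 CPM with halofuginone, log2 fold change -3.56 (SE 0.229, edgeR adjusted p 2.51e-14). Fam69b was 32.5, 32.5 and 29.4 CPM in DMSO, 25.9, 30.9 and 27.6 CPM with BtdCPU and 2.51, 2.11 and 1.91 CPM with halofuginone, log2 fold change -3.69 (SE 0.193, edgeR adjusted p 3.05e-16). Efna4, an ephrin ligand, was lower with both, from 17.6, 21.3 and 17.7 CPM to 7.48, 15.8 and 9.78 CPM with BtdCPU and 0.898, 1.08 and 1.08 CPM with halofuginone, log2 fold change -3.43 (SE 0.225, edgeR adjusted p 3.69e-14).

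The same difference was read in Perk-null cells, in libraries that the PERK WT comparison does not use. There 2881 genes were higher with halofuginone than with BtdCPU (17.9%) and 2912 were lower (18.1%). Of the 5212 genes higher in PERK WT cells, 2270 were also called higher in Perk-null cells, which is 43.6% of the PERK WT calls and 78.8% of the Perk-null calls, and 88 were called lower. Of the 5127 lower genes, 2315 were also called lower, 45.2% of the PERK WT calls and 79.5% of the Perk-null calls, and 88 were called higher. A test of the genotype difference itself (Perk-null minus PERK WT) called 2619 genes positive (16.3%) and 2521 negative (15.7%). Each genotype is a single line as labelled, so the lack of PERK and other differences between the lines cannot be told apart.

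Atf3 showed the same gap in both genotypes, at 14.96, 10.2 and 11.7 CPM with BtdCPU and 55.7, 54.99 and 77.6 CPM with halofuginone in Perk-null cells (log2 fold change 2.36). The genotype difference was -0.18 (SE 0.268, edgeR adjusted p 0.658). Arrdc4 had a Perk-null difference of 3.90, 0.589, 0.449 and 0.842 against 10.1, 8.05 and 10.1 CPM, and a genotype difference of -0.69 that was not called (edgeR adjusted p 0.105). Txnip was again low with BtdCPU and high with halofuginone, 8.48, 9.91 and 6.3 against 252, 181 and 339 CPM, with a genotype difference of -1.49 (SE 0.4799, edgeR adjusted p 0.0173). Rnr1 and Rnr2 were again higher with BtdCPU, by -2.71 and -2.21 for halofuginone minus BtdCPU.

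Other differences were smaller or turned in Perk-null cells. Hist1h1c was 28.2, 23.8 and 20.3 CPM with BtdCPU and 101, 68.1 and 83.5 CPM with halofuginone, and its genotype difference was -4.41 (SE 0.348, edgeR adjusted p 1.92e-10). P2rx7 reached 2.35, 1.13 and 3.67 CPM with halofuginone, a genotype difference of -4.84 (SE 0.8701, edgeR adjusted p 8.07e-05). Of the 28 histones, 17 were called in the genotype test, all negative, and of 28 immediate early genes 18 were negative and 1 positive. Trib3 had no called difference in Perk-null cells (0.36, edgeR adjusted p 0.299), and the genotype difference was 1.21 (SE 0.369, edgeR adjusted p 0.0121). Kif21b, a kinesin, changed sign, from -1.77 in PERK WT to 1.51 in Perk-null cells, with 4.87, 4.65 and 6.49 CPM under BtdCPU and 13.2, 17.6 and 14.6 CPM under halofuginone there. Its genotype difference was 3.28 (SE 0.429, edgeR adjusted p 1.04e-06). Of 36 complex I subunits 4 were lower in Perk-null cells, and 15 were positive and 0 negative in the genotype test. Among 60 cytosolic ribosomal proteins, 3 were higher and 4 lower in Perk-null cells, and 21 were positive and 0 negative in that test. Among 18 NRF2 targets, 2 were higher and 7 lower, and 14 were positive and 0 negative.

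**Figure D5:**
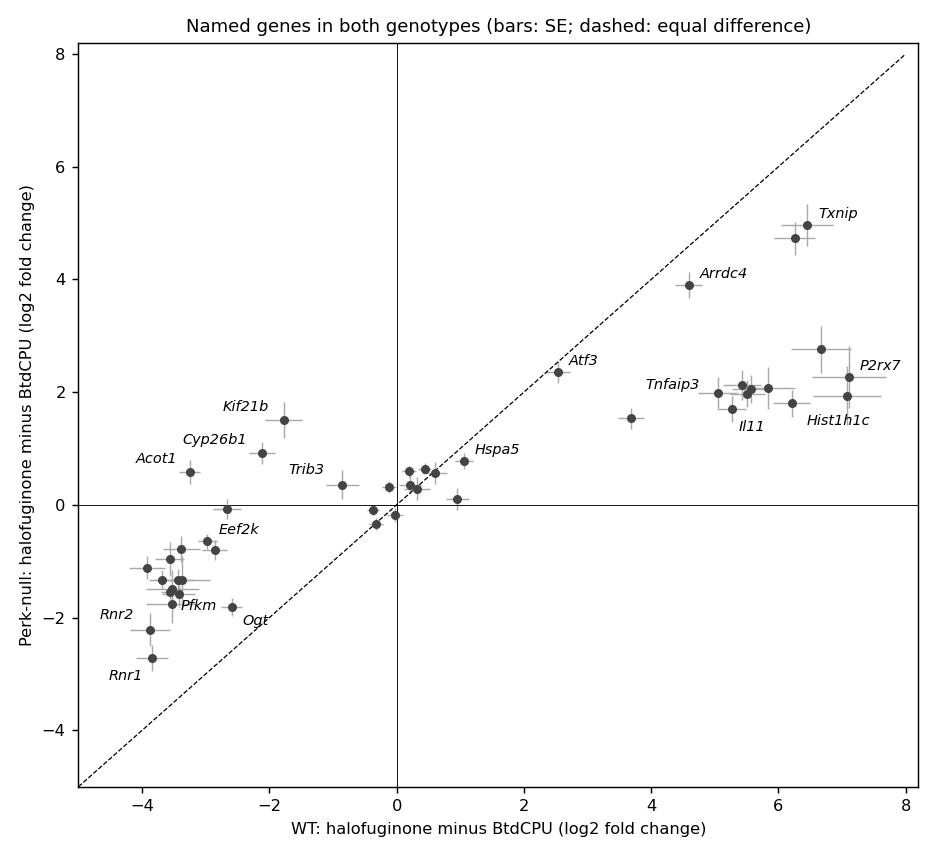
Log2 fold change of halofuginone minus BtdCPU in PERK WT (horizontal) and Perk-null cells (vertical) for the fixed readouts and the genes named for the largest differences, for lying on opposite sides of DMSO or for the genotype difference, with SE bars and a dashed line of equality. Atf3, Arrdc4 and Hspa5 lie near the line, and the histones, P2rx7, Il11 and Tnfaip3 lie well under it. Acot1, Kif21b and Cyp26b1 are negative in PERK WT and positive in Perk-null cells. Acot1 was near the floor in Perk-null DMSO libraries, so its sign there is not read as a reversed response.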

How the data were processed

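Per the labels' protocols, RNA was extracted with a Zymo kit and made into strand-specific DNBSEQ libraries, with ribosomal depletion and mRNA selection both named. The submitters' processing notes name GRCm39 and DESeq without their roles, and the aligner, counter and use of strand are not given in the sources used here. The authors deposited a table of estimated counts per gene, unscaled between libraries, for 36930 entries. In it 0.025 stands at 50.6% of values and was read as 0. Entries named by numbers (27, 0.206% to 0.278% of counts) were left out, 39 repeated symbols (86 entries) were summed to give 36856, and counts were rounded. Libraries of a group differed by a chi-square of at least 9.06 per degree of freedom, so none repeated another.

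The test was the quasi-likelihood one of edgeR 4.0.16 (R 4.3.3): filterByExpr (16065 genes), TMM, and a robust fit with 12 group means on all 36 libraries (common dispersion 0.0199, 24 residual degrees of freedom), called at a Benjamini-Hochberg adjusted p under 0.05. The same fit was run on simulated counts with few changed genes, balanced in direction, and no outlying library. Those settings are unlike these data, so that run does not cover the scaling or the shared spread here. Fold changes are on the log2 scale. PERK WT and Perk-null groups follow the labels. Named genes are 13 fixed readouts, the 12 largest differences each way (mean log2 CPM of at least 2, groups apart, over 3 counts in each library of the lower group), 2 each way per list, 5 each way on opposite sides of DMSO and 3 each way for the genotype difference (over 3 counts in all 12 libraries). The members and the 34 lists were chosen with earlier results of these data known. Scores have a prior count of 2. Alternatives were DESeq2 1.42.0, RLE or no scaling, no filter, the compared groups alone, a replicate block and leaving out each library. A count of 0 allows up to 3 counts, and such floors cover counting error only.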

Additional observations from a re-analysis of the deposited data

Results flagged for a closer look

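The difference between halofuginone and BtdCPU itself differed between PERK WT and Perk-null cells, by an interaction test in edgeR, for 5140 of 16065 genes. The values are Perk-null minus PERK WT on the log2 scale. Among the fixed readouts it was -0.85 for Eif2ak3, 0.40 for Asns, 1.21 for Trib3 and 0.44 for Psat1, and their log2 fold changes in Perk-null cells were 0.11, 0.59, 0.36 and 0.32. Eif2ak3 is the gene of PERK, so its genotype difference cannot be told apart from the disruption of that gene in Perk-null cells. The most negative values under the naming rule were -5.14 for Gm35546, -4.84 for P2rx7 and -4.41 for Hist1h1c. The most positive were 3.84 for Acot1, 3.28 for Kif21b and 3.04 for Cyp26b1, a retinoic acid hydroxylase. Acot1 was 0.191, 0.0551 and 0.242 CPM in Perk-null DMSO libraries against 46.5, 54.8 and 46.8 CPM in PERK WT DMSO libraries. With a Perk-null DMSO level this near the floor, its genotype difference is not read as a reversed response to the compounds.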

How the results depend on the processing

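The count of genes differing between the compounds in PERK WT cells stayed within 1.5 times of 10339 under every alternative run, from 8164 (compared groups alone) to 11211 (replicate block), and from 9666 to 9981 leaving out each library. BtdCPU against DMSO (3571 genes) moved more: 5534 with the replicate block, 835 with the compared groups alone, 1780 to 5062 leaving out each library, with 1780 without BtdCPU replicate 1, 1966 without BtdCPU replicate 3 and 2370 without DMSO replicate 2. Same-numbered halofuginone and BtdCPU libraries correlated at 0.01, 0.14 and 0.21 in their deviations, and not every library correlated best with its own number. The numbers were not taken as a pairing in the main fit. Across the PERK WT DMSO, BtdCPU and halofuginone groups, however, replicate 3 libraries correlated at 0.21 to 0.29 with each other. With replicates 1 and 2 of the other groups they correlated at -0.26 to 0.02. An effect shared by replicate number is therefore not removed in the main fit. A fit of the compared groups with the block, chosen after seeing the data, called 9047. The ISR score difference ranged from -0.15 to 0.12 leaving out each library.

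Of 2193 values of 169 named genes under alternatives, 46 lost the call, 8 gained it and 5 changed sign. The sign changes were Eif2ak4 (0.00882 with RLE scaling, 0.00879 with DESeq2, 0.0597 without BtdCPU replicate 2, 0.0376 without halofuginone replicate 2, in a range of -0.20 to 0.0597 leaving out each library) and Psat1 (0.0194 without halofuginone replicate 3, in a range of -0.24 to 0.0194), neither of them called. Of 442 list medians, 13 moved by more than their spread. Library totals alone moved the median of all genes for halofuginone against DMSO by -0.11. The causes were not tested. With 3 libraries a group, differences below the spread between libraries could not be resolved.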

Other observations

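Further gene groups showed uneven differences between the compounds in PERK WT cells. Of 30 mitosis genes, 3 were higher and 13 lower with halofuginone, median -0.29 (-0.16 without BtdCPU replicate 2), with Kif20a, a kinesin of cytokinesis, at 303, 417 and 414 CPM with BtdCPU and 90.8, 76.7 and 106 CPM with halofuginone, log2 fold change -2.05 (SE 0.144, edgeR adjusted p 1.72e-13). Prc1, which bundles microtubules of the spindle midzone, moved the other way, log2 fold change 0.97 (SE 0.148, edgeR adjusted p 1.07e-06). Of 16 cytosolic heat shock chaperones, 5 were higher and 9 lower, median -0.48. Hspa1a and Hspa1b, near-identical HSP70 genes whose reads may be split, were lower than in DMSO with both compounds, and Hspa1b stood at 65.2, 66.1 and 58.97 CPM in DMSO, 19.6, 38.9 and 20.8 CPM with BtdCPU and 7.03, 11.3 and 10.2 CPM with halofuginone. Of 15 tested BCL-2 family and death receptor genes, 5 were higher and 7 lower, median -0.28. Mcl1, a survival member, was 54.4, 68.8 and 62.9 CPM with BtdCPU and 189, 199 and 183 CPM with halofuginone, log2 fold change 1.62 (SE 0.0871, edgeR adjusted p 5.8e-16), and Pmaip1, which encodes NOXA and counters MCL1, was 3.95, 1.53 and 3.69 CPM with BtdCPU and 20.96, 18.1 and 22.4 CPM with halofuginone, log2 fold change 2.75 (SE 0.3101, edgeR adjusted p 4.27e-09).

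Of 26 autophagy genes, 10 were higher and 10 lower, median -0.03, with Optn, a cargo receptor, higher at log2 fold change 1.57 (SE 0.259, edgeR adjusted p 4.09e-06). Ulk1, the initiating kinase, was lower at log2 fold change -1.10 (SE 0.1902, edgeR adjusted p 8.58e-06). Of 8 aryl hydrocarbon receptor targets, 4 were higher and 3 lower, median 0.51 (1.30 without BtdCPU replicate 1 and 1.87 in the compared groups alone), and Tiparp stood at 32.4, 29.99 and 35.8 CPM with BtdCPU and 359.6, 295 and 541 CPM with halofuginone, log2 fold change 3.61 (SE 0.232, edgeR adjusted p 2.51e-14). Of 22 tested interferon-stimulated genes, 8 were higher and 3 lower, median 0.57, a median that ranged from 0.06 to 1.01 when each library was left out. Rsad2 and Oasl1 were the largest risers, at log2 fold changes of 3.84 (SE 0.707, edgeR adjusted p 2.06e-05) and 3.58 (SE 0.494, edgeR adjusted p 2.0e-07). Psmb8, an immunoproteasome subunit, was lower with halofuginone, log2 fold change -1.48 (SE 0.302, edgeR adjusted p 0.000195). Dna2, a replication nuclease and helicase, had the largest fall among DNA replication genes, from 28, 20.2 and 31.8 CPM in DMSO to 8.24, 15.9 and 6.89 CPM with BtdCPU and 1.55, 0.8795 and 0.74 CPM with halofuginone, log2 fold change -3.30 (SE 0.309, edgeR adjusted p 9.08e-11).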
